A study of Mus musculus with 24 samples.

Results

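The genes described are the solute carriers that reached a set level in sorted mouse lung macrophages. They are the 162 protein-coding genes whose symbol begins with Slc and a number and whose mean was at least 5 FPKM (fragments mapped to a transcript, scaled for its length and for the total of the library) in at least 1 of 8 groups. The deposited table held 37979 genes, of which 368 had such a symbol. Of these, 168 reached the level and 6 were left out by name (Slc7a2, Slc2a1, Slc16a3, Slc34a2, Slc40a1 and Slc11a1). The genes were chosen by their mean FPKM in these libraries, so their being expressed is not a finding. The members nearest the threshold were Slc35b3 (5.04 FPKM in its highest group), Slc18b1 (5.05) and Slc11a2 (5.06), and the nearest below it were Slc19a1 (4.96), Slc16a11 (4.87) and Slc25a35 (4.71). A further 62 solute carriers were tested but stayed under 5 FPKM, 138 did not pass the test filter of 1 FPKM in any group, and 44 of those 138 were listed at 0 in every library. Of the 162 members, 85 were at 5 FPKM or more in all 8 groups and 21 in 1 group only. Those 21 had to differ between groups by the way they were chosen, so no p is given for one of them where its 1 group is compared. They were Slc12a2, Slc16a9, Slc27a3, Slc2a3, Slc39a8, Slc41a3 and Slc6a12 (5 FPKM in MacB1-N only), Slc14a1, Slc20a2, Slc35a1, Slc38a4, Slc9b1 and Slc9b2 (MacB2-3wk only), Slc30a6, Slc35b3, Slc37a3, Slc39a12 and Slc5a6 (MacA-2wk only), Slc18b1 and Slc1a3 (MacA-N only) and Slc46a1 (MacB3-2wk only). The choice also acts on members that reached the level in a few groups only, such as Slc52a3, which did so in the MacA groups alone. Where those groups are compared with others, their direction and p follow in part from the choice. Such members were not counted apart. The members Slc4a1ap, Slc7a6os, Slc9a3r1 and Slc9a3r2 carry the symbol of a carrier but encode an adaptor, or are named for a neighbouring carrier gene.

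Solute carriers are membrane proteins that move ions, amino acids, sugars, nucleotides, metals, vitamins and lipids, either down a gradient or against one by coupling to a second ion or solute. Some sit in the plasma membrane, others in lysosomes, the Golgi apparatus or the inner mitochondrial membrane (the large Slc25 family). In macrophages they are known for taking up nutrients, for releasing what has been digested in lysosomes, for handling iron and zinc, and for the exchange of cystine for glutamate that feeds glutathione synthesis.

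Lung macrophages came from male C57BL/6 mice aged 10 to 16 weeks, either without tumour or 2 or 3 weeks after 100000 LLC-Luc cells, a luciferase-expressing Lewis lung carcinoma line, had been injected into the left lung lobe. MacA cells were SiglecF+ and CD11c+, the gate of alveolar macrophages. The other gates were CD11b+ and Ly6G-: MacB1 was CD64 low and CD11c+, MacB2 was CD64 intermediate and CD11c-, and MacB3, sorted only from tumour-bearing lung, was CD64 high and CD11c+. Naive lung gave MacA-N, MacB1-N and MacB2-N, 3 gates were sorted at 2 weeks (MacB3-2wk, MacB2-2wk and MacA-2wk), and MacB3-3wk and MacB2-3wk came from the 3-week tumours. Each group had 3 libraries from independent experiments (n = 3 for every mean ± SD), and each library held cells pooled from 3 to 5 mice. The tumour model uses 1 cell line. Cells of naive mice came from the whole lung and cells of tumour mice from the injected left lobe alone, so tumour and lobe cannot be told apart. Lane 1 held every MacA library, whereas lanes 2, 3 and 7 held replicates 1, 2 and 3 of MacB, so population and lane cannot be told apart between MacA and any MacB group.

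Library depth is unknown for FPKM, and relative depth, read from the smallest steps between low values, ranged from 0.519 to 1. Protein-coding genes made up 10.4% to 27.8% of the FPKM sum of a library, and the 162 members summed to 4099 to 5909 FPKM, or 0.587% to 1.04% of the protein-coding sum. The summed level of 8 alveolar macrophage markers (among them Siglecf, Marco and Fabp4) was 5025 to 6894 FPKM in the MacA libraries and 142 to 735 in the MacB libraries, and 9 macrophage and monocyte markers summed to at least 3568 in every library. Libraries that stood apart in the markers of other cells were MacA-2wk replicate 3 (fibroblast and matrix markers 348 FPKM against 40.9 and 43.9 in replicates 2 and 1) and, for endothelial markers, MacB2-N replicate 3 (363 against 90.7 and 107) and MacB2-2wk replicate 2 (405 against 136 and 139). Because these are bulk samples, fewer cells of a type and less RNA per cell cannot be told apart.

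Levels differed widely between classes, which were set by Slc family number and named for substrates of those families. A member need not move the substrate named. The amino acid and peptide class holds Slc6a4 (serotonin) and Slc6a8 (creatine), and the inorganic ion and pH class holds the adaptor Slc9a3r2. The median member of the amino acid and peptide class (26 genes) had a mean over the groups of 18.3 FPKM, that of the mitochondrial class (27 genes) 17.1, metal and heme (25 genes) 13.4, inorganic ion and pH (28 genes) 12.3, sugar and nucleotide sugar (26 genes) 12.3, nucleoside, vitamin, lipid and other (15 genes) 6.97, and monocarboxylate, organic ion and vesicular (15 genes) 5.04. The highest member was Slc15a3, a lysosomal transporter of histidine and peptides (chr19:10839727-10859362, GRCm38). The MacA-N libraries had 1555, 1342 and 1566 FPKM of Slc15a3, and the lowest group, MacB1-N, had 603, 736 and 756. MacA-2wk spread most, at 1616, 1552 and 704 FPKM, the low value being replicate 3. Its related lysosomal carrier Slc15a4 had the opposite order in naive lung, with 23.1 ± 8.45 FPKM in MacA-N and 56.1 ± 22.4 in MacB1-N (log2 difference 1.23, SE 0.29, limma adjusted p = 0.00268), while Slc15a3 differed by -1.09 (SE 0.28, adjusted p = 0.00498). Both differences were under 2-fold without MacB1-N replicate 1.

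The classes also differed in how far their members ranged between groups, in an order that follows in part from the choice of members. Every member reached 5 FPKM in some group, so a member with a low mean over the groups had to vary between them. The classes with the lowest median means, monocarboxylate, organic ion and vesicular (5.04 FPKM) and nucleoside, vitamin, lipid and other (6.97), had the widest ranges. No other set of genes was measured in this way. On the log2(FPKM + 1) scale, the median distance from a member's lowest to its highest group mean was 2.48 for nucleoside, vitamin, lipid and other carriers, 2.20 for monocarboxylate, organic ion and vesicular carriers, 1.86 for amino acids and peptides, 1.82 for inorganic ions and pH, 1.33 for metals and heme, 1.16 for mitochondrial carriers and 1.11 for sugars and nucleotide sugars. The mitochondrial carriers thus combined high levels with a narrow range. Slc25a3, the mitochondrial phosphate carrier, had group means between 113 ± 17.8 and 158 ± 26.6 FPKM. Slc25a5, an ADP/ATP carrier, was between 160.0 ± 36.5 in MacB1-N and 287 ± 46.3 in MacB2-2wk, but this gene has near-identical copies that can share its reads, so its level is uncertain. MacA-2wk was the highest group for 35 members, MacB1-N for 26, MacA-N for 24, MacB2-3wk for 21, MacB3-2wk for 20, MacB2-N and MacB3-3wk for 13 each and MacB2-2wk for 10. The highest group was not counted over all genes. Protein-coding genes at 5 FPKM or more also had their highest median in MacA-2wk, at 14.7 FPKM.

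A gene is called here when its limma p, adjusted by the Benjamini-Hochberg method over the 17156 genes tested, was under 0.05 and its fold on the log2(FPKM + 1) scale was at least 2. By this rule 94 of the 162 members were called in at least 1 of 11 pairwise comparisons and 68 in none. The same count was not made over all genes, so no trait of solute carriers is read from it. All 162 members passed the test filter.

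**Figure D1:**
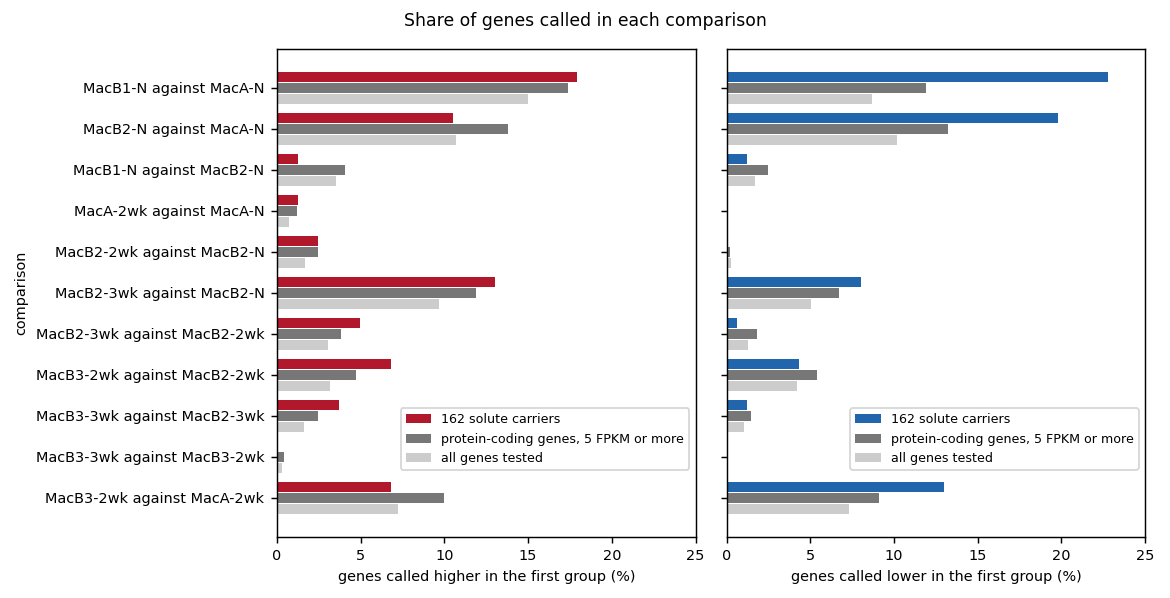
Horizontal axes give the percentage of genes called higher (left) or lower (right) in the first-named group of each of the 11 comparisons; coloured bars are the 162 solute carriers, dark grey bars the 10149 protein-coding genes at 5 FPKM or more, and light grey bars all 17156 genes tested. The solute carriers stand furthest above the grey bars in the lower calls of MacB1-N and MacB2-N against MacA-N.

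In naive lung, MacA-N carried a set of carriers that were at or near 0 in the CD11b+ populations, and MacB1-N and MacB2-N carried another set. MacB1-N against MacA-N gave 29 members higher and 37 lower (17.9% and 22.8% of members), beside 15% and 8.71% of all genes tested and 17.4% and 11.9% of protein-coding genes at 5 FPKM or more. Of the 29, 6 are members only through MacB1-N, and of the 37, 1 only through MacA-N. MacB2-N against MacA-N gave 17 higher and 32 lower (10.5% and 19.8%), beside 10.7% and 10.2% of all genes and 13.8% and 13.2% of the protein-coding genes at that level, and 2 of the 32 are members only through MacA-N. The median log2 difference of the members was -0.17 for MacB1-N and -0.06 for MacB2-N, against 0.12 and 0.03 for all genes. The share of higher calls depended on scaling. Quantile normalization gave 20 higher and 45 lower for MacB1-N and 15 and 34 for MacB2-N, and rescaling to the protein-coding sum gave 28 and 37, and 10 and 43. Quantile normalization moved the median of all genes for MacB1-N from 0.12 to -0.03. The 8 endothelial markers, none at 0, summed to 73.7 to 98.0 FPKM in MacA-N, 338 to 453 in MacB1-N and 90.7 to 363 in MacB2-N. Dendritic cell markers (7 genes) summed to 4.40 to 7.62, 234 to 339 and 29.3 to 42.4 FPKM in the same order, fibroblast and matrix markers (8 genes, Lum at 0 in MacA-N) to 20.8 to 33.6, 139 to 183 and 42.8 to 131, and lung epithelial markers (9 genes) to 657 to 5332, 3136 to 12890 and 3165 to 10320. Markers of T, NK and B cells (8 genes) went the other way, at 413 to 466, 43.3 to 86.9 and 18.5 to 27.1 FPKM. The part of these cells in the differences was not tested.

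The amino acid and peptide carriers (26 members) split 4 higher and 10 lower in MacB1-N and 1 and 7 in MacB2-N. The inorganic ion carriers (28 members) split 7 and 6 in MacB1-N and 6 and 5 in MacB2-N, and the metal carriers (25) 3 and 6, and 2 and 7. Of 27 mitochondrial carriers 4 were higher and 2 lower in MacB1-N, and 3 and 1 in MacB2-N, so 21 and 23 were not called. The monocarboxylate, organic ion and vesicular carriers (15) split 4 and 6, and 0 and 5, the nucleoside, vitamin, lipid and other carriers (15) 5 and 4, and 4 and 4, and the sugar and nucleotide sugar carriers (26) 2 and 3, and 1 and 3.

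The largest differences belonged to 3 carriers that were high in MacA and almost absent elsewhere. Slc39a2, a zinc importer (chr14:51892889-51896745), was at 66.5, 102 and 69.4 FPKM in MacA-N and at 0.236, 0.901 and 3.50 in MacB1-N and 0, 1.49 and 0.684 in MacB2-N. Slc6a4, the serotonin transporter (chr11:76998603-77032340), was at 36.3, 41.9 and 44.5 FPKM in MacA-N, 0.858, 0.654 and 1.66 in MacB1-N and 0, 0.128 and 0.482 in MacB2-N. Slc9a4, a sodium and proton exchanger (chr1:40580081-40630725), was at 45.8, 66.8 and 46.5 FPKM in MacA-N, 0.694, 1.23 and 2.84 in MacB1-N and 0.944, 0.535 and 1.07 in MacB2-N. For each of these genes every MacA library, naive or tumour, was above every MacB library. Among the naive groups only MacA-N reached 5 FPKM of them, so their direction there follows in part from the choice of members. The log2 differences of MacB1-N and MacB2-N from MacA-N were -5.17 and -5.61 for Slc39a2 (SE 0.40, adjusted p = 9.66e-09 and 2.61e-09), -4.37 and -5.14 for Slc6a4 (SE 0.27, adjusted p = 5.57e-10 and 4.01e-11) and -4.45 and -4.86 for Slc9a4 (SE 0.33, adjusted p = 4.37e-09 and 9.89e-10). The annotation places another protein-coding gene, Mettl17, across part of the Slc39a2 locus on the same strand, so reads there could belong to either.

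**Figure D2:**
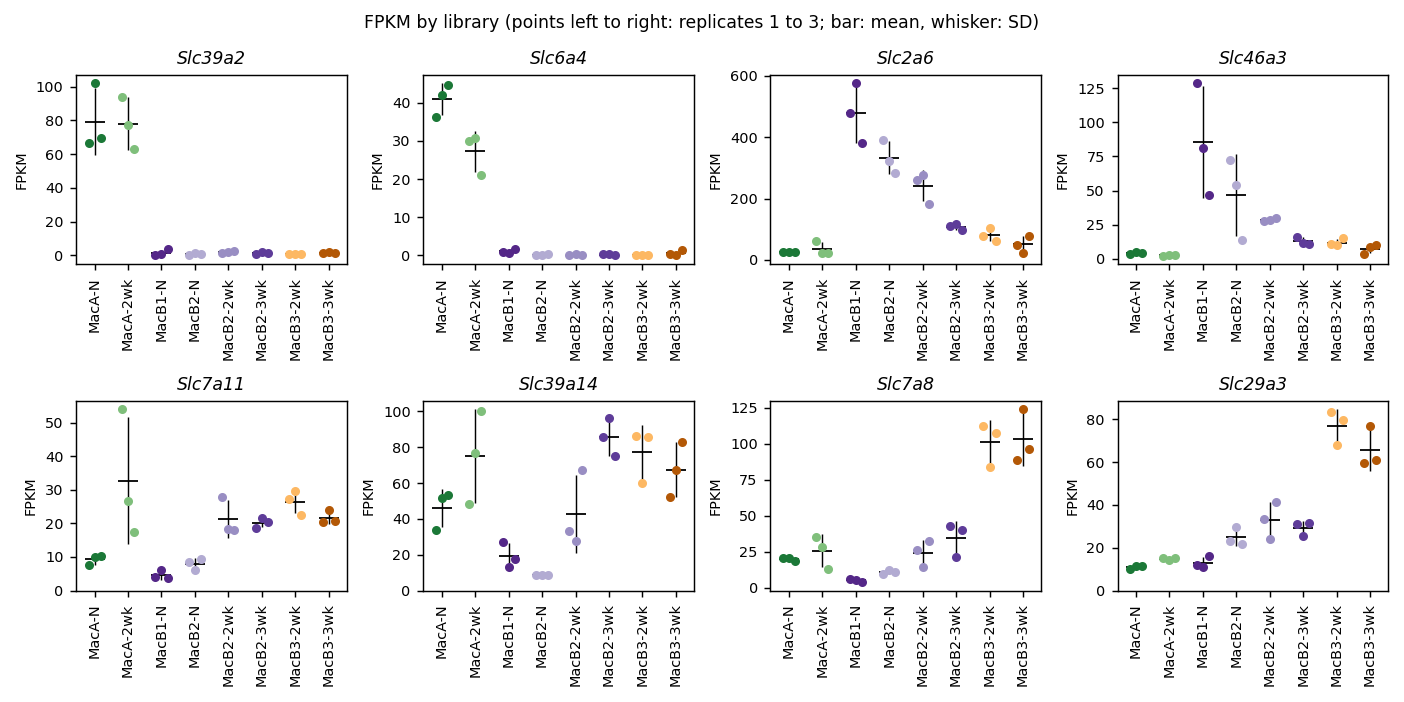
FPKM in each library (vertical axes, linear) for 8 solute carriers in the 8 groups; points are replicates 1 to 3 from left to right, the bar is the mean and the whisker the SD. Slc39a2 and Slc6a4 are high only in the 6 MacA libraries, Slc2a6 and Slc46a3 are highest in naive MacB1 and MacB2, Slc7a11 is higher in every tumour library than in every naive one, and Slc7a8 and Slc29a3 are highest in MacB3.

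Slc9a2, a second sodium and proton exchanger, lies 49849 bases from Slc9a4 on chromosome 1 with no protein-coding gene between them. Slc9a2, which falls outside the naming rule and was chosen after its values were seen, had the same order at a lower level, with 9.39 ± 1.38 FPKM in MacA-N, 1.07 ± 0.551 in MacB1-N and 0.147 ± 0.148 in MacB2-N (log2 differences -2.35 and -3.18, adjusted p = 1.1e-06 and 1.86e-08). Slc39a12, a second zinc importer, averaged 3.85 ± 1.06 FPKM in naive MacA and 7.998 ± 2.76 in MacA-2wk, and no MacB library exceeded 1.37 FPKM. The MacA-N libraries had 17.7, 15.0 and 18.4 FPKM of the riboflavin transporter Slc52a3, and the MacA-2wk libraries 18.1, 16.4 and 18.1. None of its 18 MacB values was above 4.11 FPKM, and the log2 differences from MacA-N were -2.44 in MacB1-N and -3.21 in MacB2-N (SE 0.23, adjusted p = 1.35e-07 and 3.11e-09). Only the MacA groups reached 5 FPKM of Slc52a3, so its being higher there follows in part from the choice of members.

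Other MacA carriers were also read in the MacB groups, at lower levels. Slc29a1, the equilibrative nucleoside transporter of the plasma membrane (chr17:45585200-45599606), was at 135, 132 and 132 FPKM in MacA-N, 33.1 ± 2.88 in MacB1-N and 24.2 ± 1.28 in MacB2-N. Its log2 differences were -1.98 and -2.41 (SE 0.17, adjusted p = 2.76e-08 and 1.62e-09), and all MacA libraries were above all MacB libraries. Slc6a6, the taurine transporter, fell in the same way from 207 ± 22.7 FPKM in MacA-N to 69.0 ± 6.89 in MacB1-N and 60.01 ± 6.69 in MacB2-N (log2 -1.57 and -1.77, adjusted p = 2.03e-06 and 4.1e-07). Slc12a7, a potassium and chloride cotransporter, was at 24.3 ± 2.79 FPKM in MacA-N, 4.52 ± 1.64 in MacB1-N and 4.00 ± 0.561 in MacB2-N, with intermediate values of 12.7, 13.03 and 12.5 in MacB3-2wk. Slc38a6, an amino acid transporter, was at 80.0, 81.5 and 41.6 FPKM in MacA-N and 1.61, 5.56 and 3.92 in MacB1-N (log2 -3.91, SE 0.58, adjusted p = 3.03e-05), but varied within groups, with 38.8, 95.7 and 14.4 FPKM in MacB3-2wk. Slc7a5, the large neutral amino acid exchanger, was at 27.1 ± 4.40 FPKM in MacA-N and at 6.42 ± 3.22 and 6.60 ± 3.11 in MacB1-N and MacB2-N (adjusted p = 7.52e-05 and 9.91e-05). Slc48a1, the heme transporter of the endolysosome, was lower in MacB2-N than in MacA-N, at 38.96 ± 3.19 against 89.5 ± 11.2 FPKM (log2 -1.18, SE 0.23, adjusted p = 0.000469).

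The carriers higher in the naive CD11b+ populations were led by Slc2a6, a hexose transporter of the lysosome (chr2:27021363-27027998). Slc2a6 was at 25.5, 25.6 and 25.1 FPKM in MacA-N, 481, 575 and 379.7 in MacB1-N and 392, 324 and 284 in MacB2-N (log2 differences 4.16 and 3.65, SE 0.36, adjusted p = 3.46e-08 and 1.71e-07). Slc46a3, a lysosomal carrier related to the folate transporter (chr5:147878437-147894815), was at 3.33, 5.16 and 4.53 FPKM in MacA-N, 129, 81.4 and 46.7 in MacB1-N and 72.7, 54.4 and 13.8 in MacB2-N (log2 3.92 and 2.89, SE 0.46, adjusted p = 1.76e-06 and 6.33e-05). Slc44a2, a choline transporter, was at 11.1 ± 0.544 FPKM in MacA-N, 61.1 ± 9.27 in MacB1-N and 51.6 ± 5.42 in MacB2-N (log2 2.36 and 2.12, SE 0.19, adjusted p = 1.52e-08 and 5.27e-08). No naive MacB library of these 3 genes overlapped MacA-N.

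Calcium carriers were among them. Slc8b1, the sodium and calcium exchanger of mitochondria, was at 128, 90.7 and 81.3 FPKM in MacA-N, 287, 311 and 403 in MacB1-N and 529.5, 323 and 556 in MacB2-N (log2 1.74 and 2.21, SE 0.30, adjusted p = 0.000156 and 1.02e-05). Slc8a1, its plasma membrane relative, was at 72.5 ± 29.7, 173 ± 35.3 and 162 ± 67.2 FPKM in the same order (log2 1.29 and 1.12, adjusted p = 0.00902 and 0.0236). The Slc8a1 libraries of MacB2-N overlapped those of MacA-N, and that call was lost under both scalings (adjusted p = 0.131 and 0.0685) and when any 1 of MacA-N replicates 2 and 3 and MacB2-N replicates 2 and 3 was left out (0.0865 to 0.115). Slc24a1, a potassium-dependent sodium and calcium exchanger, was at 1.40 ± 0.816 FPKM in MacA-N, 13.3 ± 5.90 in MacB1-N and 5.13 ± 1.43 in MacB2-N (adjusted p = 3.91e-05 and 0.00985), with an adjusted p of 0.0634 for MacB2-N when replicate 1 of MacA-N was left out. Slc25a38, the mitochondrial glycine carrier used in heme synthesis, was at 4.82 ± 1.29, 21.99 ± 2.22 and 19.8 ± 5.26 FPKM (log2 2.00 and 1.83, adjusted p = 0.000188 and 0.00046). Slc15a2, a peptide transporter, was at 11.4 ± 2.36, 47.8 ± 20.4 and 37.9 ± 16.8 FPKM (adjusted p = 0.0117 and 0.0362). The MacB1-N call of Slc15a2 was lost without MacB1-N replicate 2 (0.0569), and the MacB2-N call without any MacA-N library or MacB2-N replicate 2 or 3 (0.0545 to 0.146), on rescaling (0.102) and without the low-value filter (0.0536).

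**Figure D3:**
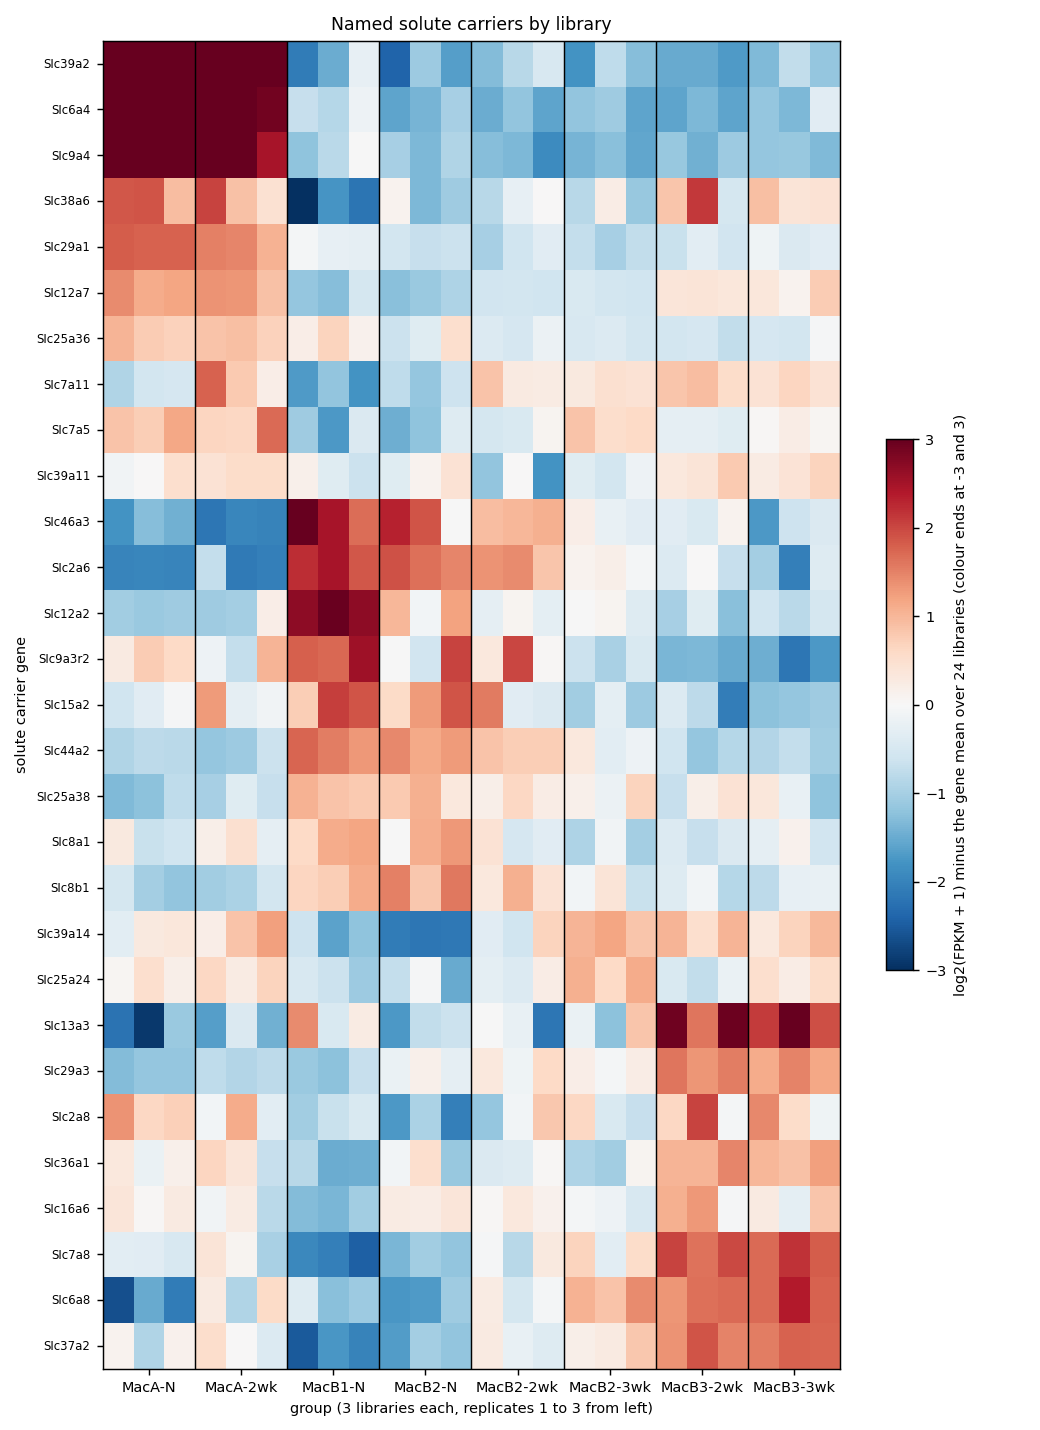
Each row is 1 of 29 genes that the naming rule gave in a pairwise comparison (Slc9a3r2 is an adaptor, not a carrier) and each column 1 of the 24 libraries; colour is log2(FPKM + 1) minus the mean of the gene over all libraries, on a scale from -3 (blue) to 3 (red). Rows are ordered by the group with the highest mean, so the blocks of MacA, naive MacB and MacB3 carriers follow from that order.

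The naive CD11b+ groups MacB1-N and MacB2-N differed in few solute carriers: 2 were higher and 2 lower in MacB1-N, or 1.23% of members each way, beside 3.5% and 1.7% of all genes and 4.07% and 2.46% of protein-coding genes at 5 FPKM or more. Without the fold minimum 10 members passed. Slc12a2, the sodium, potassium and chloride cotransporter, was at 18.6, 22.9 and 18.6 FPKM in MacB1-N, 5.06, 1.89 and 6.12 in MacB2-N and 0.423 to 0.491 in MacA-N. It exceeded MacB2-N by 2.07 (log2, SE 0.34). Slc27a3, a fatty acid transport protein named here because the count was small, was at 11.3, 7.31 and 12.6 FPKM in MacB1-N against 0.893, 2.15 and 1.29 in MacB2-N (log2 2.22, SE 0.50). Both are members only through MacB1-N, so their being higher there follows in part from the choice of members. The lower genes were Slc16a6, a monocarboxylate transporter of the family that moves ketone bodies, with 16.2 ± 2.22 against 47.6 ± 2.52 FPKM (log2 -1.51, SE 0.31, adjusted p = 0.00485), and the copper transporter Slc31a1, with 7.17 ± 1.31 against 15.4 ± 2.22 (log2 -1.01, SE 0.17, adjusted p = 0.000624). The Slc31a1 difference was under 2-fold on rescaling to the protein-coding sum, with a pseudocount of 5 and without MacB1-N replicate 1 or MacB2-N replicate 2. In a fit of the 2 groups alone the Slc31a1 call was lost (adjusted p = 0.089), as was that of Slc12a2. Without MacB2-N replicate 3, the library with the high endothelial markers, 4 members were higher and 7 lower, and the 4 original calls were kept. Rescaling to the protein-coding sum gave 4 higher and 1 lower and moved the median of all genes from 0.09 to 0.26, and quantile normalization gave 2 and 5. The 7 dendritic cell markers, none at 0, summed to 234 to 339 FPKM in MacB1-N and 29.3 to 42.4 in MacB2-N, and the 8 endothelial markers to 338 to 453 and 90.7 to 363. Their part in these differences was not tested.

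At 2 weeks after injection few carriers differed from naive lung, and those called were higher in tumour. MacA-2wk against MacA-N gave 2 members higher and 0 lower (1.23%), beside 0.729% and 0.0583% of all genes and 1.18% and 0.0493% of protein-coding genes at 5 FPKM or more. MacB2-2wk against MacB2-N gave 4 higher and 0 lower (2.47%), beside 1.66% and 0.227% of all genes and 2.43% and 0.177% of the protein-coding genes at that level. At an unadjusted p under 0.05, 21 members were higher and 4 lower in MacA, and 21 higher and 8 lower in MacB2. Counts at an unadjusted p, here and below, were not made over all genes, so no trait of solute carriers is read from them. Fitted on the 2 groups alone, no member was called in either comparison. Without MacA-2wk replicate 3, the library with the high fibroblast markers, the same 2 members were called in MacA, and without MacB2-N replicate 3 the same 4 in MacB2.

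Slc7a11, the cystine and glutamate exchanger (chr3:49892526-50443614), was called in both populations. The 3 naive MacA libraries had 7.51, 9.98 and 10.3 FPKM, and those of 2-week tumours 54.0, 26.8 and 17.5. In MacB2, Slc7a11 was at 8.48, 6.17 and 9.42 FPKM in naive lung, 27.9, 18.2 and 17.9 at 2 weeks and 18.7, 21.5 and 20.5 at 3 weeks. Every tumour library, MacB3 included (20.5 to 29.5 FPKM), was above every naive library (3.61 to 10.3 FPKM), although MacB1 and MacB3 were sorted in naive or in tumour lung only. The log2 differences were 1.58 in MacA at 2 weeks (SE 0.29, adjusted p = 0.00917), 1.30 in MacB2 at 2 weeks (SE 0.29, adjusted p = 0.0225) and 1.25 in MacB2 at 3 weeks (SE 0.29, adjusted p = 0.00416), the last 2 sharing the MacB2-N libraries. Leaving out replicate 1 of MacA-N ended the MacA call (adjusted p = 0.0531), as did a fit of the 2 groups alone (0.498). The 2-week MacB2 call was lost without MacB2-N replicate 1 or 2 or MacB2-2wk replicate 1 or 3 (0.056 to 0.093), and in a fit of the 2 groups alone (0.176). The test of the difference between the MacA and MacB2 responses gave -0.28 (SE 0.41, adjusted p = 0.871).

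Because Slc7a11 was higher in the tumour groups of both populations, its promoter is shown. The 250 bases before its RefSeq start (GRCm38.p6, chr3:50443614-50443863, minus strand, written in the direction of the gene) hold the amino acid response element core TGATGCAA, in capitals, once on each strand, with first bases 66 and 47 bases before the start:
Slc7a11: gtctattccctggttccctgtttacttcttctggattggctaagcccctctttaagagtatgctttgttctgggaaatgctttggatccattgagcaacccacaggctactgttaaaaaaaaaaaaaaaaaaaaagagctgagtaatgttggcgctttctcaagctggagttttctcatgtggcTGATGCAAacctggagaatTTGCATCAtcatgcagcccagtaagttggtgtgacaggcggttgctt
RefSeq windows were found for 123 of the 162 members (166 windows). On either strand, 3 of those windows (1.81%: Slc7a11, Slc7a7 and Slc50a1) and 0.791% of all 32851 windows held these 8 letters. A match of letters describes the window and is not a measured binding site.

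Slc6a8, the creatine transporter (chrX:73673150-73682502), was the other carrier called in MacA. Naive MacA libraries had 0.778, 2.85 and 1.57 FPKM of it and MacA-2wk libraries 12.3, 4.93 and 15.4 (log2 2.07, SE 0.36, adjusted p = 0.00653; 0.480 when the 2 groups were fitted alone). In MacB2 it was at 3.00 ± 1.11 FPKM in naive lung, 9.45 ± 2.74 at 2 weeks (log2 1.39, adjusted p = 0.0522, not called) and 23.04 ± 4.78 at 3 weeks (log2 2.61, SE 0.36, adjusted p = 4.51e-05). MacB3 was higher again, with 26.7, 33.9 and 35.1 FPKM at 2 weeks and 34.5, 56.5 and 36.7 at 3 weeks. No MacB3 library overlapped a naive library of any population.

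Slc39a14, an importer of zinc and non-transferrin-bound iron (chr14:70303469-70351425), rose in MacB2. Its libraries were at 8.95, 8.54 and 8.67 FPKM in MacB2-N, 33.2, 27.6 and 67.4 in MacB2-2wk and 85.7, 96.2 and 75.1 in MacB2-3wk, with no overlap between successive groups. The log2 differences from MacB2-N were 2.06 at 2 weeks (SE 0.32, adjusted p = 0.00122) and 3.15 at 3 weeks (adjusted p = 1.42e-06). The step from 2 to 3 weeks was 1.09 (adjusted p = 0.0488), and that call was lost without any of 5 of the 6 libraries compared (all but MacB2-2wk replicate 3; adjusted p 0.0817 to 0.191), with a pseudocount of 0.1 (0.0615), without the low-value filter (0.0622) and in a fit of the 2 groups alone (0.194). In MacA the same gene was at 46.1 ± 10.9 FPKM in naive lung and 75.2 ± 26.1 at 2 weeks (log2 0.66, SE 0.32, adjusted p = 0.472). The response of MacB2 minus that of MacA was 1.40 (SE 0.45, adjusted p = 0.267), so a difference between the populations was not shown. For this test of the difference in response, 0 members were called, beside 0.134% and 0.0874% of all genes and 0.197% and 0.148% of protein-coding genes at 5 FPKM or more, and 5 members were higher and 7 lower at an unadjusted p under 0.05.

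By 3 weeks, more of the MacB2 carriers differed from naive lung: 21 were higher and 13 lower in MacB2-3wk than in MacB2-N (13% and 8.02% of members), beside 9.67% and 5.04% of all genes and 11.9% and 6.7% of protein-coding genes at 5 FPKM or more. Of the 21 higher, 5 are members only through MacB2-3wk. The median log2 difference of members was -0.07, against 0 for all genes. Rescaling to the protein-coding sum gave 23 higher and 9 lower with a median of all genes of 0.10, and quantile normalization gave 19 and 17. Without MacB2-N replicate 3 there were 21 higher and 10 lower, of which 28 were among the 34. MacB2-3wk against MacB2-2wk gave 8 higher and 1 lower (4.94% and 0.617%), beside 3.06% and 1.28% of all genes and 3.79% and 1.78% of protein-coding genes at 5 FPKM or more, and 3 of the 8 are members only through MacB2-3wk. Without MacB2-2wk replicate 2 it gave 4 and 1, of which 3 were among the 9.

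The carriers that were lower in MacB2-3wk included several that were high in naive MacB cells. Slc2a6 was at 392, 324 and 284 FPKM in MacB2-N, 262, 278 and 184 in MacB2-2wk and 110.1, 116 and 98.4 in MacB2-3wk. Its 3-week value fell by 1.60 (log2, SE 0.36, adjusted p = 0.00311), without overlap, and MacB3-3wk was lower still at 49.9, 24.2 and 77.8 FPKM. Slc44a2 went from 51.6 ± 5.42 FPKM through 36.01 ± 1.67 at 2 weeks to 20.1 ± 5.06 at 3 weeks (log2 -1.33, SE 0.19, adjusted p = 5.62e-05). Slc8b1 fell from 469 ± 128 to 178 ± 63.2 FPKM (log2 -1.42, adjusted p = 0.00193), Slc8a1 from 162 ± 67.2 to 55.97 ± 21.4 (log2 -1.48, adjusted p = 0.00556) and Slc24a1 from 5.13 ± 1.43 to 0.475 ± 0.216 (log2 -2.04, adjusted p = 0.000772). Slc15a2 fell from 37.9 ± 16.8 to 8.05 ± 3.03 FPKM (adjusted p = 0.0102; 0.0535 without MacB2-N replicate 3). Slc46a3 was at 12.96 ± 2.79 FPKM against 46.98 ± 30.1 (log2 -1.51, adjusted p = 0.0234), but MacB2-N replicate 3 (13.8 FPKM) lay within the range of MacB2-3wk, and the call was lost without MacB2-N replicate 1 or 2 or MacB2-3wk replicate 2 or 3 (0.0642 to 0.136). This comparison and that of MacB2-N with MacA-N share the MacB2-N libraries. Marker sums that were lower beside these genes were those of macrophages and monocytes (9 genes, 8402 to 13070 FPKM in MacB2-N and 5847 to 7251 in MacB2-3wk), dendritic cells (29.3 to 42.4 and 9.33 to 12.7) and endothelium (90.7 to 363 and 46.3 to 55.3), with no marker of these lists at 0. Csf1r, the receptor that defines the macrophage lineage, averaged 523 FPKM in MacB2-N and 222 in MacB2-3wk. Within the macrophage and monocyte list the largest fall in FPKM was that of Lyz2 (means 7948 and 3890). Emr1, Itgam, Ccr2 and Cx3cr1 were also lower. Cd14 (757 and 1175 FPKM), Cd68 (612 and 748) and Fcgr1 (73.2 and 83.1) were higher in MacB2-3wk, so the list did not fall as a whole. The part of these shifts in the results was not tested.

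The carriers called higher in MacB2-3wk than in MacB2-N ranged from members near 0 in naive MacB2 to members read in every group. Slc16a1, the lactate and pyruvate transporter MCT1, was at 1.37, 1.30 and 1.41 FPKM in MacB2-N, 4.07, 4.72 and 7.23 in MacB2-2wk and 14.8, 23.9 and 13.1 in MacB2-3wk. The 3-week value differed from naive by 2.91 (log2, SE 0.28, adjusted p = 7.33e-07) and from 2 weeks by 1.51 (adjusted p = 0.00369), while the 2-week call (1.39, adjusted p = 0.00967) was lost without MacB2-2wk replicate 3 (0.0733). Slc30a4, a zinc exporter, was at 0.173, 0.0544 and 1.23 FPKM in MacB2-N and 10.99, 17.7 and 10.5 in MacB2-3wk (log2 3.29, SE 0.54, adjusted p = 0.000212). Slc14a1, a urea transporter, was at 2.17, 2.33 and 2.49 FPKM in MacB2-N and 9.72, 8.26 and 6.66 in MacB2-3wk. Slc38a4, an amino acid transporter, Slc20a2, a phosphate transporter, and Slc5a3, the inositol transporter, were chosen after their values were seen. Their means in MacB2-N and MacB2-3wk were 0.152 ± 0.184 and 5.33 ± 1.30, 1.04 ± 0.382 and 6.08 ± 1.60, and 1.16 ± 0.871 and 6.88 ± 2.24 FPKM. Slc14a1, Slc38a4 and Slc20a2 are members only through MacB2-3wk, whereas Slc5a3 averaged 7.28 ± 3.20 FPKM in MacA-2wk and was tested (adjusted p = 0.000369). The protein-coding genes Mrps6 and Gm49711 overlap the Slc5a3 locus on the same strand, so reads there could belong to any of them. Slc25a24, a mitochondrial carrier of ATP and phosphate, was at 20.5 ± 10.4 FPKM in MacB2-N and 63.3 ± 12.3 in MacB2-3wk (log2 1.68, SE 0.29, adjusted p = 0.000319), and Slc7a5 at 6.60 ± 3.11 and 22.4 ± 2.88 (log2 1.69, SE 0.32, adjusted p = 0.000797).

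The summed markers of fibroblasts and matrix were also higher in MacB2-3wk. The 8 markers (Col1a1, Col1a2, Col3a1, Dcn, Lum, Pdgfra, Mfap4 and Col6a3), none of them at 0 in MacB2, summed to 52.1, 42.8 and 131 FPKM in MacB2-N, 183, 231 and 211 in MacB2-2wk and 528, 973 and 634 in MacB2-3wk. Col3a1 and Dcn had the highest means in MacB2-3wk (266 and 236.5 FPKM). Mfap4 was lower in MacB2-3wk than in MacB2-N (25.1 and 40.9 FPKM), and the other markers of the list were higher. In MacB3 the 8 markers summed to 37.2 to 68.2 FPKM at 2 weeks and 207 to 339 at 3 weeks. In MacA-2wk, replicate 3 with its marker sum of 348 FPKM was also the highest of the 3 libraries for Slc30a4 (12.4 against 0.444 and 1.34 FPKM), Slc38a4 (4.38 against 0.288 and 0.500), Slc14a1 (5.47 against 0.752 and 1.44), Slc16a1 (14.6 against 7.06 and 5.84) and Slc20a2 (7.96 against 2.35 and 1.66). This did not hold for every carrier called higher in MacB2-3wk, since Slc7a11 was lowest in that MacA-2wk replicate. Krt18 and Krt8, keratins of simple epithelia, also moved: Krt18 was at 2.00, 1.89 and 1.02 FPKM in MacB2-N and 42.6, 39.4 and 37.6 in MacB2-3wk. Over the whole list of 9 lung epithelial markers the sums went the other way, from 3165 to 10320 FPKM in MacB2-N to 611 to 871 in MacB2-3wk. The part of these other cells in the results was not tested.

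**Figure D4:**
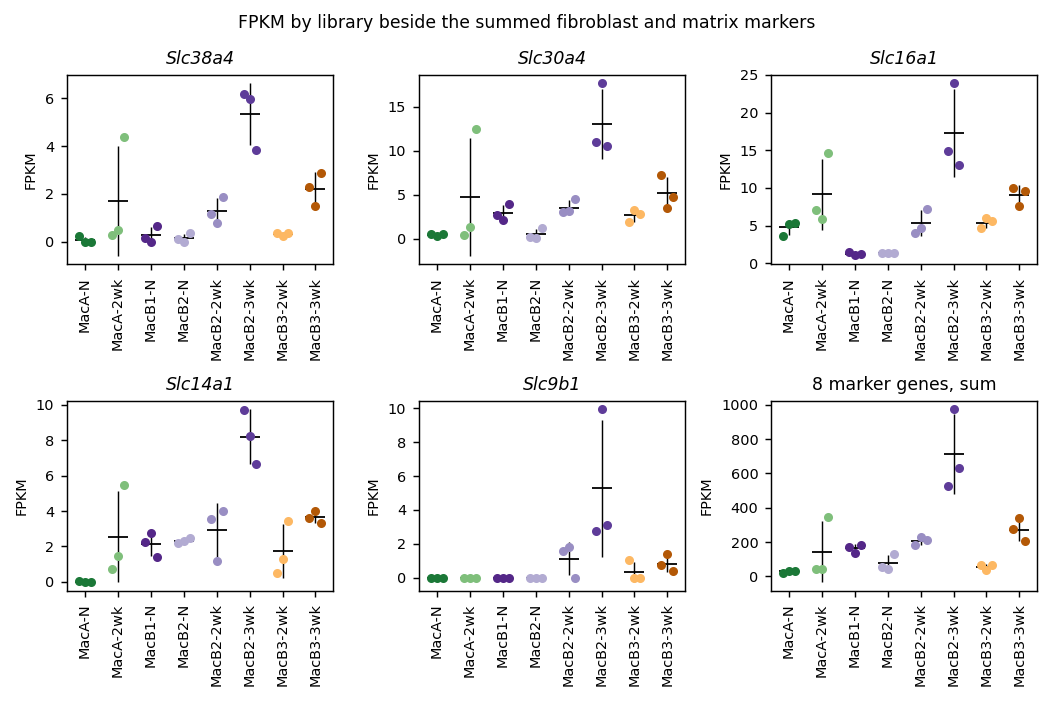
FPKM in each library (vertical axes, linear) for 5 solute carriers and for the sum of the 8 fibroblast and matrix markers, in the 8 groups; points are replicates 1 to 3 from left to right, the bar is the mean and the whisker the SD. MacB2-3wk is the highest group in all 6 panels. For Slc38a4, Slc14a1 and Slc9b1, members only through MacB2-3wk, this was fixed by the choice of members, and Slc38a4 and Slc9b1 were chosen after their values were seen. MacA-2wk replicate 3 stands above the other MacA libraries for the marker sum and all of the carriers but Slc9b1, which is listed at 0 in MacA.

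Slc9b1 and Slc9b2, sodium and proton exchangers that lie 2642 bases apart on chromosome 3, had their highest means in MacB2 from tumour-bearing lung. Both were chosen after their values were seen, and both are members only through MacB2-3wk. Slc9b2 was listed at 0 in all 6 MacA libraries, was at no more than 0.469 FPKM in any naive MacB library, and was at 5.78, 2.88 and 4.61 in MacB2-2wk and 1.32, 6.67 and 16.6 in MacB2-3wk. Against MacB2-N it differed by 2.22 at 2 weeks (log2, SE 0.49, adjusted p = 0.0209), a call that does not involve MacB2-3wk. Slc9b1 was listed at 0 in all 12 MacA and naive MacB libraries and was at 1.55, 1.81 and 0 FPKM in MacB2-2wk and 2.74, 9.93 and 3.13 in MacB2-3wk. In MacB3 the highest library had 1.63 FPKM of Slc9b2 and 1.37 of Slc9b1.

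The MacB3 gate, found only in tumour-bearing lung, differed from MacB2 of the same week in a small set of carriers, most of them higher in MacB3. At 2 weeks 11 members were higher and 7 lower (6.79% and 4.32%), beside 3.15% and 4.21% of all genes and 4.71% and 5.42% of protein-coding genes at 5 FPKM or more. At 3 weeks 6 were higher and 2 lower (3.7% and 1.23%), beside 1.61% and 1.03% of all genes and 2.47% and 1.43% of the protein-coding genes at that level, and both lower genes, Slc9b1 and Slc9b2, are members only through MacB2-3wk. The medians of the members were -0.01 and 0.00, against -0.08 and -0.04 for all genes. Scaling changed the counts to 10 and 7 (rescaled) or 13 and 6 (quantile) at 2 weeks and to 4 and 2 or 9 and 2 at 3 weeks. Without MacB2-2wk replicate 2 the 2-week counts were 9 and 5.

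The 2 comparisons share no library. All 6 carriers higher at 3 weeks were among the 11 of 2 weeks (100% and 54.5%), namely Slc7a8, Slc13a3, Slc36a1, Slc37a2, Slc29a3 and Slc27a1, and all 11 had the same sign at 3 weeks. Of the 7 lower at 2 weeks 6 had the same sign, and Slc9b2 was called lower in both (14.3% and 50% of the 2 lists). Across the 162 members the log2 differences at 2 and 3 weeks had a Pearson r of 0.65, and across all 17156 genes tested 0.43. These describe genes, which are not independent. The values are not like for like, since members were chosen at 5 FPKM and the genes tested reach down to 1 FPKM. Neither r at the members' level nor the overlap of calls over all genes was computed, so no trait of solute carriers is read from them.

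**Figure D5:**
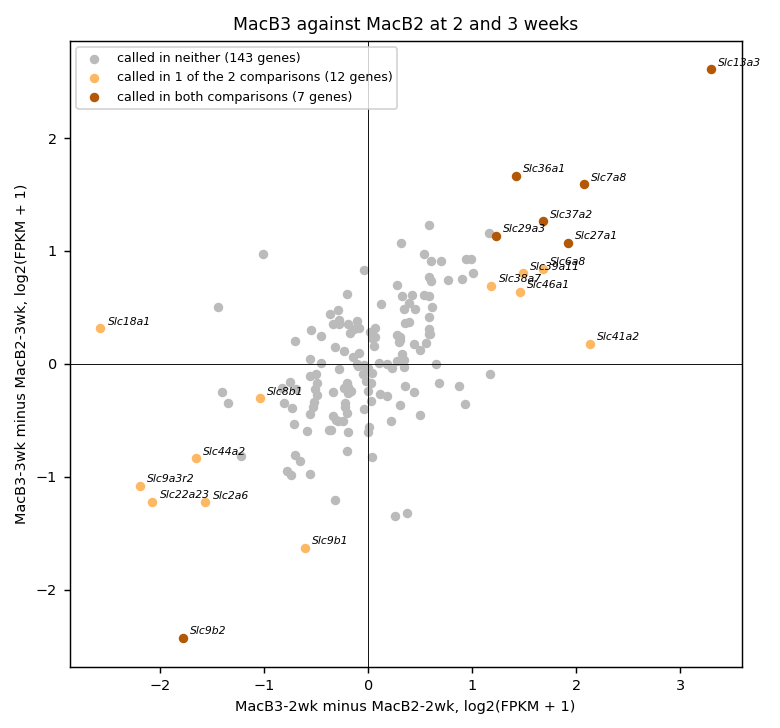
Each point is 1 of the 162 members, placed by the log2(FPKM + 1) difference of MacB3 minus MacB2 at 2 weeks (horizontal) and at 3 weeks (vertical). The 7 genes called in both comparisons are dark and the 12 called in 1 of them light orange; the 6 dark points at the upper right are the carriers higher in MacB3 at both times, with Slc13a3 the furthest out.

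Slc7a8, the neutral amino acid exchanger LAT2 (chr14:54722209-54781946), had the highest level among them in MacB3. It was at 25.9, 14.6 and 32.6 FPKM in MacB2-2wk and 112, 83.9 and 108 in MacB3-2wk (log2 2.07, SE 0.33, adjusted p = 0.00035). At 3 weeks it was at 43.2, 21.1 and 39.8 FPKM in MacB2-3wk and 88.9, 124 and 96.3 in MacB3-3wk (log2 1.59, adjusted p = 0.00736; 0.0534 without MacB2-3wk replicate 2). Every MacB3 library was above every other library, the highest of which was 43.2 FPKM. Its partner Slc3a2, the heavy chain that carries Slc7 light chains to the cell surface, was at 99.5 ± 4.58 FPKM in MacB2-2wk and 186 ± 11.03 in MacB3-2wk, and at 103 ± 18.4 and 174 ± 23.4 at 3 weeks. These differences were 0.90 and 0.76 (log2, SE 0.19, adjusted p = 0.00483 and 0.0317), under the 2-fold rule, so Slc3a2 was not called. Slc7a5, which uses the same heavy chain, did not follow Slc7a8: it was at 10.9 ± 0.410 and 14.8 ± 1.11 FPKM in MacB3 and 11.1 ± 2.90 and 22.4 ± 2.88 in MacB2.

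Slc29a3, the nucleoside transporter of lysosomes (chr10:60712072-60752794), was at 33.4, 24.2 and 41.2 FPKM in MacB2-2wk and 83.3, 68.1 and 79.5 in MacB3-2wk. At 3 weeks it was at 31, 25.6 and 31.5 FPKM in MacB2-3wk and 59.4, 77.0 and 61.0 in MacB3-3wk. The MacB3 libraries lay above all others, and the differences were 1.23 and 1.13 (log2, SE 0.19, adjusted p = 0.000263 and 0.00126), calls that none of the 14 alternatives ended. Its plasma membrane relative Slc29a1 had the other order, highest in MacA and at 26.3 ± 3.62 and 30.9 ± 3.43 FPKM in MacB3. Slc27a1, a fatty acid transport protein, was at 2.92 ± 1.28 and 13.3 ± 1.58 FPKM at 2 weeks (log2 1.92, SE 0.25, adjusted p = 5.43e-05) and 7.56 ± 1.68 and 16.9 ± 2.88 at 3 weeks (log2 1.07, adjusted p = 0.0175). The 3-week call of Slc27a1 was lost without MacB2-3wk replicate 1 or 2 or MacB3-3wk replicate 2 (0.0584 to 0.096), with a pseudocount of 0.1 (0.0773) and in a fit of the 2 groups alone (0.0717), and was under 2-fold on rescaling and with a pseudocount of 5.

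Slc13a3, the sodium-coupled dicarboxylate transporter (chr2:165405028-165473230), differed most but varied most. It was at 6.40, 5.37 and 0.656 FPKM in MacB2-2wk and 55.2, 21.8 and 56.4 in MacB3-2wk (log2 3.29, SE 0.66, adjusted p = 0.00313). At 3 weeks it was at 5.46, 2.20 and 12.3 FPKM in MacB2-3wk and 30.8, 67.8 and 27.7 in MacB3-3wk (log2 2.61, adjusted p = 0.0319). The groups did not overlap at either time, although 1 naive library, MacB1-N replicate 1, reached 18.98 FPKM. The 3-week call was lost without any 1 of MacB2-3wk replicates 1 and 2 and MacB3-3wk replicates 1, 2 and 3 (0.0644 to 0.165).

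Slc36a1, the lysosomal proton-coupled amino acid transporter (chr11:55204350-55236330), and Slc37a2, a sugar-phosphate exchanger of the endoplasmic reticulum that is known in macrophages (chr9:37227585-37255738), complete the set. Slc36a1 was at 16.6, 17.3 and 23.4 FPKM in MacB2-2wk and 46.8, 46.9 and 64.7 in MacB3-2wk (log2 1.42, SE 0.38, adjusted p = 0.0215), and at 11.5, 10.5 and 24.1 in MacB2-3wk and 46.8, 42.5 and 54.6 in MacB3-3wk (log2 1.67, adjusted p = 0.0163). Every MacB3 library of Slc36a1 was above every other library. The 2-week call of Slc36a1 was lost without MacB2-2wk replicate 1 or 2 or MacB3-2wk replicate 3 (0.0703 to 0.0933), and the 3-week call without MacB2-3wk replicate 1 or 2 or MacB3-3wk replicate 1 or 3 (0.0501 to 0.0886). Slc37a2 was at 1.61, 3.10 and 2.67 FPKM in MacB2-N, 9.09, 6.18 and 5.40 in MacB2-2wk, 8.49, 9.05 and 13.6 in MacB2-3wk, 20.3, 29.8 and 22.3 in MacB3-2wk and 23.1, 27.4 and 27.2 in MacB3-3wk. Its MacB3 libraries were above all others, and it differed from MacB2 by 1.68 at 2 weeks (log2, SE 0.31, adjusted p = 0.00144) and 1.26 at 3 weeks (adjusted p = 0.0261). The 3-week call of Slc37a2 was lost without MacB2-3wk replicate 1 or 2 or any MacB3-3wk library (0.0531 to 0.109) and under rescaling (0.0753).

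The promoters of these last 2 genes are shown because both genes were called in both MacB3 comparisons and each window holds a motif that was searched for. Windows are the 250 bases before the RefSeq start (GRCm38.p6), for Slc36a1 chr11:55204090-55204339 on the plus strand and for Slc37a2 chr9:37255739-37255988 on the minus strand, written in the direction of the gene. Capitals mark the E-box CACGTG, the core of the sites of TFEB and related factors, 31 bases before the start of Slc36a1, and the AP-1 site TGANTCA, 107 bases before that of Slc37a2:
Slc36a1: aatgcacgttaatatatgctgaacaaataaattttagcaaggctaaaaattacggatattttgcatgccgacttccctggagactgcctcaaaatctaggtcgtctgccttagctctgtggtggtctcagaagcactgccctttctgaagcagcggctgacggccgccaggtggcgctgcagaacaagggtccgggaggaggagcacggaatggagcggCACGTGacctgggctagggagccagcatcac
Slc37a2: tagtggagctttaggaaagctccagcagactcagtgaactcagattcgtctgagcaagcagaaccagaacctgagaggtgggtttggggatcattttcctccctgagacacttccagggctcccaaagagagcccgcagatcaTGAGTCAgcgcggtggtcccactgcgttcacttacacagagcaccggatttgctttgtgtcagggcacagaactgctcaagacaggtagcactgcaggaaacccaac
Searched on both strands, CACGTG was in 18 of the 166 member windows (10.8%) and 6.02% of all windows, and TGANTCA in 8 (4.82%) and 6.75%. Among the 6 carriers higher in MacB3 at both times, the windows of Slc13a3, Slc27a1 and Slc36a1 held CACGTG. The antioxidant response element core TGACNNNGC was in 27 member windows (16.3%) and 10.2% of all windows, and the PU.1 site GAGGAAGT in 4 (2.41%) and 2.44%. These shares describe letters only.

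Other carriers were called higher in MacB3 at 2 weeks alone. Slc41a2, a magnesium transporter, was at 3.78 ± 1.86 FPKM in MacB2-2wk and 19.1 ± 5.74 in MacB3-2wk (log2 2.13, SE 0.40, adjusted p = 0.00177), but at 10.9 ± 5.66 and 11.4 ± 1.64 at 3 weeks. Slc39a11, a zinc transporter, was at 7.04, 17.5 and 4.29 against 21.9, 22.9 and 30.8 FPKM (log2 1.49, SE 0.33, adjusted p = 0.007), Slc38a7, a lysosomal glutamine transporter, at 9.13 ± 2.00 against 21.9 ± 4.04 (log2 1.18, adjusted p = 0.00496) and Slc6a8 at 9.45 ± 2.74 against 31.9 ± 4.51 (log2 1.68, adjusted p = 0.00528). Slc46a1, a folate and heme transporter, passed 5 FPKM only in MacB3-2wk (5.46 ± 1.41), so its call was partly fixed by the choice of members. The genes lower in MacB3-2wk included Slc2a6 (81.2 ± 20.4 against 241 ± 50.4 FPKM, log2 -1.57, adjusted p = 0.00794), Slc44a2 (10.9 ± 2.34 against 36.01 ± 1.67, log2 -1.66, adjusted p = 1.41e-05) and Slc8b1 (139 ± 36.9 against 289 ± 86.8, log2 -1.04, adjusted p = 0.0309). The Slc8b1 call was lost under both scalings (0.0721 and 0.0747) and without MacB2-2wk replicate 2 or MacB3-2wk replicate 1 or 3 (0.0662 to 0.148). Slc18a1, the vesicular monoamine transporter, was at 18.7, 12.7 and 5.07 FPKM in MacB2-2wk and 1.39, 0.0612 and 2.03 in MacB3-2wk (log2 -2.58, SE 0.52, adjusted p = 0.00301), yet at 8.08, 11.2 and 8.78 in MacB3-3wk.

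Slc9a3r2, an adaptor protein, was at 16.9, 56.9 and 13.8 FPKM in MacB2-2wk and 4.55, 4.68 and 4.04 in MacB3-2wk (log2 -2.20, adjusted p = 0.0157; 0.101 without MacB2-2wk replicate 2 and 0.0545 without MacB3-2wk replicate 3). In MacB2-N it was at 13.2, 8.61 and 58.0 FPKM. The high libraries, MacB2-2wk replicate 2 and MacB2-N replicate 3, were those with endothelial marker sums of 405 and 363 FPKM. The part of endothelial RNA was not tested.

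Another marker set moved with MacB3. The 7 erythroid and platelet markers summed to 610 to 1407 FPKM in the MacB3 libraries and 44.7 to 216 in MacB2-2wk and MacB2-3wk, mainly from Pf4 (means 806 and 952 FPKM in MacB3), a platelet chemokine gene that macrophages can also express. The platelet gene Ppbp moved with Pf4, with means of 68.8 and 55.1 FPKM in MacB3 at 2 and 3 weeks and 7.83 and 11.2 in MacB2. The platelet gene Gp9 did not, with means of 0.0985 and 0 FPKM in MacB3 and 1.00 and 0.317 in MacB2. The part of platelet RNA was not tested. MacB3-3wk against MacB3-2wk gave 0 members higher and 0 lower by limma, beside 0.28% and 0.035% of all genes and 0.434% and 0.0591% of protein-coding genes at 5 FPKM or more, with 10 and 7 at an unadjusted p under 0.05. The largest difference there, for Slc18a1, was 2.38 (SE 0.52, adjusted p = 0.0527).

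Set against MacA of the same week, MacB3-2wk had 11 carriers higher and 21 lower (6.79% and 13%), beside 7.2% and 7.28% of all genes and 9.95% and 9.07% of protein-coding genes at 5 FPKM or more. Of the 21, 2 are members only through MacA-2wk. Rescaling to the protein-coding sum gave 7 and 39 and moved the median of all genes from -0.06 to -0.32, and quantile normalization gave 9 and 20. Of the carriers high in MacA, 4 with large naive differences were also low in MacB3-2wk: Slc39a2 was at 0.786 ± 0.133 FPKM against 78.1 ± 15.7 (log2 -5.45, SE 0.40, adjusted p = 8.13e-09), Slc6a4 at 0.0541 ± 0.0937 against 27.2 ± 5.39 (log2 -4.73, adjusted p = 3.53e-10), Slc9a4 at 0.690 ± 0.215 against 41.4 ± 18 (log2 -4.54, adjusted p = 5.41e-09) and Slc52a3 at 0.458 ± 0.305 against 17.5 ± 1.00 (log2 -3.69, adjusted p = 1.3e-09). Slc29a3 was higher in MacB3 by 2.29 (log2, SE 0.19, adjusted p = 3.17e-08) and Slc7a8 by 2.04 (SE 0.33, adjusted p = 0.00012). Slc43a2, a neutral amino acid transporter, was at 93.2 ± 8.12 against 43.0 ± 3.29 FPKM (log2 1.10, adjusted p = 0.000388), a difference under 2-fold after either scaling. This comparison shares no library with MacB1-N against MacA-N: of the 37 members lower there and the 21 lower here 14 were shared (37.8% and 66.7%), and of the 29 and 11 higher 5 were shared (17.2% and 45.5%). Of the 37 lower in MacB1-N, 26 had the same sign in MacB3-2wk. The same overlap was not counted over all genes. Slc7a8, Slc37a2 and the anion exchanger Slc4a2, the last chosen after its values were seen, were lower in MacB1-N than in MacA-N (log2 -1.76, -1.86 and -1.05) but higher in MacB3-2wk than in MacA-2wk (2.04, 1.53 and 1.07). The higher Slc4a2 call (adjusted p = 0.0419) was lost under both scalings (0.158 and 0.0862), without the low-value filter (0.0595) and with the replicate block (0.0543). The lower one was lost in a fit of the 2 groups alone (0.116) and without any MacA-N library or MacB1-N replicate 1 or 3 (0.0578 to 0.1795).

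A list of 28 solute carriers that bear other symbols and of partner proteins gave 25 genes tested. In MacB1-N 4 were higher and 6 lower than in MacA-N, where 15% and 8.71% of all genes were. In MacB2-N 3 and 3 were, beside 10.7% and 10.2% of all genes. Slco2b1, an organic anion transporter, and Mfsd12, which brings cysteine into lysosomes, were lower in both naive MacB groups than in MacA-N (log2 -3.70 and -4.27, and -2.22 and -2.03). Both were higher in MacB3 than in MacB2, by 2.17 and 1.33 at 2 weeks (limma adjusted p = 0.000164 and 0.00566) and by 1.36 and 1.14 at 3 weeks (adjusted p = 0.0175 and 0.0319). They were the only genes of the list higher in either comparison, and 1 gene was lower each time. Of all genes tested, 3.15% were higher and 4.21% lower at 2 weeks, and 1.61% and 1.03% at 3 weeks. Emb, a chaperone of monocarboxylate transporters, was higher in MacB2-N than in MacA-N by 2.53 (SE 0.21, adjusted p = 1.31e-08). None of the 25 was called in the 2-week comparisons of tumour with naive lung, where at most 1.66% of all genes were called in either direction.

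Carriers under 5 FPKM in every group were also called. Of the 62 tested, 12 were higher and 3 lower in MacB1-N than in MacA-N, where 15% and 8.71% of all genes were, and 6 and 2 in MacB2-N, beside 10.7% and 10.2%. MacB1-N against MacB2-N gave 2 higher and 0 lower, beside 3.5% and 1.7% of all genes. MacB2-3wk gave 5 and 1 against MacB2-N (9.67% and 5.04% of all genes) and 1 and 0 against MacB2-2wk (3.06% and 1.28%). MacB3-2wk gave 1 and 2 against MacB2-2wk (3.15% and 4.21%) and again against MacA-2wk (7.2% and 7.28%). None was called in the 2-week comparisons with naive lung, in MacB3-3wk against MacB2-3wk or in MacB3-3wk against MacB3-2wk. In these at most 1.66% of all genes were called in either direction.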

How the data were processed

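RNA of 24 samples of sorted lung macrophages was amplified with a NuGen Ovation kit and sequenced, per the labels' protocols. Per the submitters' processing notes, the authors used FastQC, TopHat2 version 2, Cufflinks 2.0.2 and mm10. The deposited values are FPKM per those notes, although the table's header names no unit. The sources used here do not state whether counting used strand. Positions are those of GENCODE M21 (GRCm38), matched on Ensembl gene, since only 4218 of 32917 loci in the table overlapped theirs. Of the 162 members, 30 overlap another protein-coding gene.

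The FPKM values deposited by the authors were turned into log2(FPKM + 1). The 17156 genes whose mean reached 1 FPKM in some group were fitted together over the 24 libraries with limma 3.58.1 under R 4.3.3, using a group-means design (16 residual degrees of freedom) with a variance trend. Each comparison's p-values received Benjamini-Hochberg adjustment over all these genes. Fold changes on this scale understate those of low genes. Depth is unknown. The method was tested on simulated data, and figures were drawn with matplotlib 3.10.9. The alternatives were other pseudocounts, filters and scalings, fits of the compared groups alone, a replicate block and leaving out each library. Members, lists, tests and alternatives were chosen with earlier results of these data known.

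Genes were named by a rule: in each comparison up to 5 members each way with the largest differences among called members that averaged 20 FPKM or more in the higher group and did not overlap, in each class the 4 highest and the 4 widest-ranging members, and a fixed list of 23 carriers. Other members named beside these were chosen after their values were seen. Deviations of same-numbered libraries from their group means correlated at -0.07 to 0.21 among MacB groups, where a number is also a lane, and at -0.07 to 0.08 with MacA. They were weakly positive in all 3 pairs of MacB1-N with MacB2-N (0.03 to 0.21) and of MacB3-2wk with MacB2-2wk (0.05 to 0.08). No comparison had all its pairs above 0.1, so numbers were not taken to pair samples. Some items are not reported here.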

Additional observations from a re-analysis of the deposited data

How the results depend on the processing

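No call of a named gene changed direction under any alternative run. Of 942 recomputed calls of named genes with 1 library left out, 126 were lost; of 157 calls, 37 were lost with only the compared groups fitted, 37 with a pseudocount of 5, 13 on rescaling to the protein-coding sum, 9 on quantile normalization, 7 with a pseudocount of 0.1, 6 without the low-value filter and 1 with the replicate block. Counts of called members that moved by more than 1.5 times were, with a pseudocount of 5, 41 in place of 66 for MacB1-N against MacA-N, 29 in place of 49 for MacB2-N against MacA-N, 2 in place of 4 for MacB2-2wk against MacB2-N, 19 in place of 34 for MacB2-3wk against MacB2-N and 4 in place of 9 for MacB2-3wk against MacB2-2wk, the last also 4 with a pseudocount of 0.1. Fitting only the groups compared gave 2 in place of 4 for MacB1-N against MacB2-N, 0 in place of 2 for MacA-2wk, 0 in place of 4 for MacB2-2wk, 0 in place of 9 for MacB2-3wk against MacB2-2wk, 2 in place of 8 for MacB3-3wk against MacB2-3wk and 1 in place of 0 for the difference in response, with fewer samples in each fit. Without the fold minimum, MacB1-N against MacB2-N gave 10 and MacB3-3wk against MacB2-3wk 15; quantile normalization gave 7 for the first. MacB3-3wk against MacB3-2wk gave 1 in place of 0 among genes at 5 FPKM or more, and the difference in response 1 in place of 0 with a pseudocount of 0.1. For the other settings the cause was not tested. Leaving out 1 library gave 57 to 63 for MacB1-N and 48 to 51 for MacB2-N against MacA-N, 4 to 11 for MacB1-N against MacB2-N, 1 to 3 for MacA-2wk, 1 to 5 for MacB2-2wk, 31 to 39 for MacB2-3wk against MacB2-N, 2 to 8 for MacB2-3wk against MacB2-2wk, 14 to 18 and 2 to 9 for MacB3 against MacB2 at 2 and 3 weeks, 0 for MacB3-3wk against MacB3-2wk, 30 to 33 for MacB3-2wk against MacA-2wk and 0 to 1 for the difference in response. The replicate block gave 67, 49, 4, 2, 4, 35, 9, 18, 9, 0, 32 and 0 calls in the order MacB1-N and MacB2-N against MacA-N, MacB1-N against MacB2-N, MacA-2wk, MacB2-2wk, MacB2-3wk against naive and against 2 weeks, MacB3 against MacB2 at 2 and 3 weeks, MacB3 at 3 against 2 weeks, MacB3-2wk against MacA-2wk and the difference in response. FPKM does not give depth, so no limit of detection could be stated.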
